A study of Homo sapiens with 2 samples.

Results

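The transfer RNA (tRNA) probes of the array were 99 probes, out of 75149 probes that were not controls. They were chosen as the probes whose name starts with RNA and carries the class label tRNA, a rule that uses names and no measured value. The cells were THP-1, a human monocytic leukaemia line, and the stimulus was lipopolysaccharide (LPS), the endotoxin of Gram-negative bacteria. One condition was control cells, for which the labels name DMSO and the study's methods call the cells untreated, and the other was LPS-stimulated cells, both labelled with a time of 48 h. The LPS dose was not given in the sources used here. Each condition had 1 array, so that replicate error between arrays is unknown and the conditions could not be tested against each other. This number of arrays is what limits the precision. Probes are not paired with genes in the files, and marker genes of monocytes were not analysed here.

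Transfer RNAs are the adaptors of translation. Each carries an amino acid to the ribosome and reads a codon through its anticodon. Nuclear tRNA genes are transcribed by RNA polymerase III, which MAF1 represses, whereas the mitochondrial genome encodes a separate set that is transcribed by the polymerase of that organelle. Precursors are trimmed at their 5′ end by RNase P and at their 3′ end by ELAC2, receive a CCA tail from TRNT1, and are modified at many bases. Under stress, angiogenin cuts mature tRNAs in the anticodon loop. The files do not state whether a probe was designed for a mature tRNA, a precursor or a fragment.

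A probe label such as tRNA_401_71 consists of the class, a serial number and a closing number. The serial numbers ran from 125 to 476 and the closing numbers from 73 down to 65. In all 7 classes of probes labelled in this manner, the closing number increased 0 times as the serial number rose. The amino acid and the anticodon are not part of the label. As background, the RefSeq gene table (GRCh38.p14) lists 465 tRNA genes, of which 443 are nuclear, with lengths of 70 to 108 bases, and 22 are mitochondrial, with lengths of 59 to 75. Between 65 and 70 bases it lists 16 mitochondrial tRNA genes and 1 nuclear one, and between 71 and 73 bases 299 nuclear and 4 mitochondrial ones. Among the probes, 57 had a closing number of 65 to 70 and 42 one of 71 to 73. The files do not say that the closing number is a length, and no probe was assigned to a gene.

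Every tRNA probe was printed as 2 spots, which gave 198 spots on each array. The signal of a probe is the mean of its log2 spot intensities, given here as an intensity, with the LPS array divided by 1.097 so that the 75th percentiles of both arrays coincide. The control signals of the tRNA probes ran from 8.03 to 33454 with a median of 1881, and the LPS signals from 1.97 to 31583 with a median of 2074. The array values are relative, so that less of an RNA per cell and fewer cells holding it cannot be told apart. A probe counted as detected where a majority of the spots used were well above background by the scanner software. Both arrays detected 91 of the 99 tRNA probes (91.9%), beside 81.8% of all probes. A further 5 were detected only in control cells, 0 only in LPS-stimulated cells and 3 in neither. The tRNA probes were brighter than most, with 78 of them (78.8%) at or above the median signal of all probes, which was 138 as the mean of both arrays before scaling.

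The spots of these probes were flagged as uneven far more often than others. The scanner software marks a spot as non-uniform when its pixels scatter more than its noise model allows. On the control array 53 tRNA spots (26.8%) carried this flag and on the LPS array 68 (34.3%), whereas 1.71% and 1.93% of the spots of all probes carried an outlier flag. All flagged tRNA spots belonged to probes in the brightest quartile of all probes, with mean signals above 570. Within that quartile, 41.4% of the control spots and 53.1% of the LPS spots of tRNA probes were flagged, beside 4.21% and 4.91% of the spots of the other probes. Flagged spots were left out where the other spot of the probe had no flag. Where both had a flag, which held for 21 control probes and 25 LPS probes, both were used. A total of 53 probes had no flagged spot on either array, and no tRNA spot was saturated. The SD between the spots of a probe, pooled over the probes detected on both arrays, was 0.16 (log2) for control and 0.14 for LPS, which describes technical error alone.

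At a difference of at least 2-fold, 0 tRNA probes were higher with LPS and 9 were lower, out of 96 that were detected on at least 1 array. Among all probes so detected, 0.783% were higher and 16.5% lower at this threshold, so that the share of lower tRNA probes (9.38%) was below the background. This background is not matched for signal, and the tRNA probes were brighter than most. For 5 of the 9 the fold is a lower bound, because the probe was not well above background on the LPS array. The 9 became 1 with the normexp background correction, under which tRNA_379_71 had a difference of -1.22. Without scaling, 2 tRNA probes were at least 2-fold higher, tRNA_429_69 at 1.05 and tRNA_449_69 at 1.01. The 4 measured on both arrays made up 4.40% of the 91, beside 7.42% of all probes detected on both, and 0 of the 91 were higher, beside 0.820%. Among the 78 tRNA probes in the brighter part of all probes, 2 (2.56%) were lower, beside 2.11%, and 0 higher, beside 0.926%. At 1.5-fold, 19 of the 91 were lower, beside 14.9%, and 5 were higher, beside 2.74%. Over the 99 tRNA probes the median of the differences, on the log2 scale and counted as LPS minus control, was -0.12, and over all probes it was -0.13, where signals not well above background enter as read. Among the probes detected on both arrays these medians were -0.05 and -0.05. As a single group, the tRNA probes therefore had a median close to that of all probes, and their differences were next compared over the range of signal.

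Over all probes the dimmest and the second quartile of signal were lower on the LPS array than the brighter ones. The dimmest had a median difference of -1.41, where signals not well above background enter as read. Each tRNA probe was therefore set beside the other probes of like signal, those within 0.5 (log2) of its mean signal. Of the 99 tRNA probes, 68 lay below the median of these. The difference less that median had a median of -0.10 over the tRNA probes. The quartiles of mean signal over all probes have their limits at 30.6, 138 and 570. Of the 10 tRNA probes in the dimmest quartile, 2 were detected on both arrays, so that no median is given for them. Among the 11 in the second quartile the median difference was -0.71, beside -0.23 for all probes of that quartile. Among the 14 in the third quartile it was -0.60, beside 0.00 (-0.00026). The 64 in the brightest quartile had a median of 0.00 (0.0026), beside 0.03, and 32 of them lay above 0. By their medians, the tRNA probes of moderate signal thus lay below other probes of moderate signal, and the bright ones lay near the rest. The median of the bright ones did not hold over their whole range of signal. From a mean signal of 657 to 1688, every tRNA probe but tRNA_429_69 lay below 0. Each of those below 0 also lay below the median of the probes of like signal. This range was chosen after the values were seen.

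**Figure D1:**
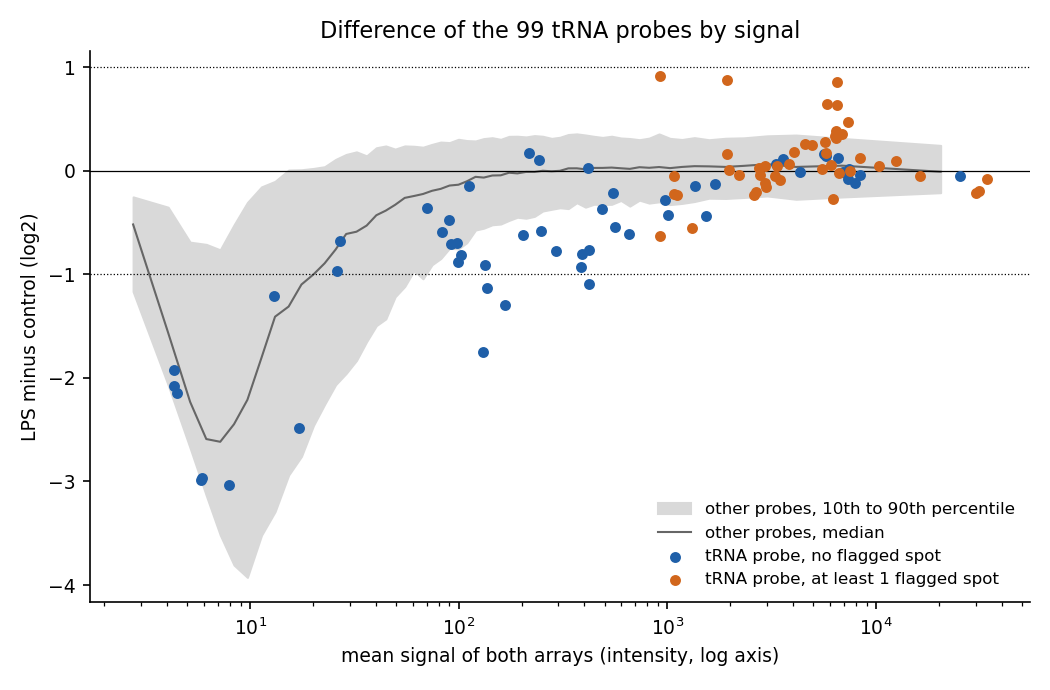
The horizontal axis gives the mean signal of both arrays on a log scale and the vertical axis the difference, LPS minus control, on the log2 scale. Points are the 99 tRNA probes, coloured by whether a spot was flagged, with the 8 not detected on both arrays at their readings, the grey line and band are the median and the 10th to 90th percentiles of the other probes, and the dotted lines mark 2-fold. Most of the 25 tRNA probes with moderate signals lie under the grey line, while the bright ones scatter on both sides of 0.

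The 25 tRNA probes of the middle quartiles, the second and the third, had differences from -1.75 to 0.17 with a median of -0.70. Of these, 22 lay below 0 and 22 below the median of the probes of like signal. The median of their percentiles among probes of like signal was 7.17, and 15 of the 25 lay under the 10th percentile. None of their spots was flagged. In the second quartile 8 of 11 tRNA probes were at least 1.5-fold lower on the LPS array, beside 25.4% of all probes of that quartile detected on both arrays. In the third quartile the number was 7 of 14, beside 5.63%. At least 1.5-fold higher were 0 and 0 of them, beside 2.29% and 3.35%. With 1 array per condition these shares were compared without a test.

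The spots give another view of the same probes. Of the 66 tRNA probes with 2 spots used on each array and detected on both, 33 had both LPS spots below both control spots, beside 38.6% of all such probes, and 6 had both above, beside 24.0%. By quartile, the LPS spots lay below for 10 of the 11 probes of the second quartile, beside 51.2%, and above for 0, beside 13.5%. In the third quartile they lay below for 11 of 14, beside 31.0%, and above for 0, beside 29.5%. In the brightest quartile 39 of the 64 tRNA probes could be counted, since flags left the others with 1 spot on an array. The LPS spots lay below for 10 of the 39, beside 26.2%, and above for 6, beside 35.2%. Of the 10 highest measured differences, 7 were among those that could not be counted. Lower LPS spots were thus more frequent than in the background in the middle quartiles, and not among the counted probes of the brightest.

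Of the 4 tRNA probes that were at least 2-fold lower and measured on both arrays, all lay in the middle quartiles. The lowest was tRNA_379_71, which read 230 for control and 68.3 for LPS, a difference of -1.75. Its spots read 266 and 198 for control and 60.5 and 77.1 for LPS. Among other probes of like signal its difference lay at the 1.52 percentile. The arrays did not overlap in their spots, and the gap exceeded the SD between spots, 0.30 and 0.25 in the same order.

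For tRNA_132_73 the signals were 248 for control and 101 for LPS, a difference of -1.30 at the 2.03 percentile. For tRNA_472_66 they were 193 and 88.2, a difference of -1.13 at the 3.17 percentile. For tRNA_142_73 they were 586 and 275, a difference of -1.09 at the 1.76 percentile. The largest SD between the spots of these 3 probes on either array was 0.25, so that each difference was several times the spread of the spots. With the normexp correction the 3 differences were -0.97, -0.87 and -0.97, under 2-fold. The closing numbers of the 4 probes were 71, 73, 66 and 73, so that they did not come from a single block of serial numbers.

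A further 6 of the 10 lowest measured differences were under 2-fold. The signals of tRNA_355_72, the single probe with this closing number, were 506 for control and 266 for LPS, a difference of -0.93. Those of tRNA_162_73 were 493 and 281, a difference of -0.81. Both lay under the 3rd percentile of the probes of like signal, at 2.26 and 2.77. The dimmer tRNA_468_67 read 174 and 92.7, a difference of -0.91. The signals of tRNA_447_69 were 129 and 69.6, a difference of -0.88, and those of tRNA_438_69 were 129 and 73.5, a difference of -0.82. These 3 lay at the 4.86, 7.17 and 7.96 percentiles. The dimmest of the 6, tRNA_451_69, read 34.8 and 17.8, a difference of -0.97, which lay at the 40.2 percentile of the probes of like signal. That difference was -0.03 under quantile normalization, -0.17 under cyclic loess and -0.40 with normexp. For tRNA_447_69 normexp gave -0.54. In all 10 probes both LPS spots lay below both control spots, and none of the 10 had a flagged spot. The 10 were picked as the lowest by these same spots, so this separation adds no separate evidence.

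Not every tRNA probe of moderate signal was lower. The exceptions were tRNA_201_73, which read 196 for control and 221 for LPS (difference 0.17), tRNA_444_69, which read 224 and 240 (0.10), and tRNA_189_73, which read 393 and 400 (0.03). These 3 were chosen after their values were seen. In all 3 the spots of the arrays overlapped, and the difference was not beyond their spread.

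The 5 lower probes whose fold is a bound were all in the dimmest quartile. The control signal of tRNA_433_69 was 38.8, and the probe was at least 5.58-fold lower on the LPS array. That of tRNA_467_68 was 21.5, and the probe was at least 3.27-fold lower. The bounds were 2.39-fold for tRNA_466_68, 2.36-fold for tRNA_463_68 and 2.31-fold for tRNA_442_69. The last, like the 5.58-fold of tRNA_433_69, is the ratio of the probe's own readings. For tRNA_442_69 the control spots read 26.9 and 13.1 and the LPS spots 13.0 and 5.09. The SD between these spots was 0.73 for control and 0.95 for LPS, so that the nearest spots of the arrays almost met. The LPS signals of the 5 read 1.97 to 8.12. As read, their differences lay at the 14.2, 26.7, 20.2, 19.1 and 58.6 percentiles of the probes of like signal, in the order named. None of the 5 thus lay under the 10th percentile. These bounds hold only for the deposited background correction and the scaling used. With normexp the 5 differences lay between -0.59 and -0.29, all under 2-fold, and under quantile and cyclic loess normalization those of tRNA_433_69, tRNA_467_68, tRNA_466_68 and tRNA_463_68 lay between -1.77 and -1.16. For tRNA_442_69 the direction turned under quantile and cyclic loess normalization, with differences of 0.46 and 0.05. The 3 probes detected on neither array were tRNA_427_69, tRNA_434_69 and tRNA_464_68, for which no fold is given.

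The highest differences were found among bright probes, and none reached 2-fold. The 10 highest ran from 0.32 to 0.92, and all were in the brightest quartile. They were also the 10 of the 99 tRNA probes above the 90th percentile of the probes of like signal. That number is close to the share which the percentile sets for any probes. At least 1.5-fold higher were 5 of the 64 tRNA probes of that quartile, beside 3% of all probes there, and 2 were at least 1.5-fold lower, beside 3.69%. Each of the 10 had at least 1 flagged spot.

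The highest was tRNA_429_69, with a control signal of 639 and an LPS signal of 1206, a difference of 0.92 at the 99.01 percentile. Its control spots read 622 and 657, and the LPS spots 1206 without a flag and 1273 with one. The spots of the arrays stood far apart. The difference was 0.95 with the flagged spot kept and 0.64 with the normexp correction.

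For tRNA_449_69 the signals were 1358 for control and 2494 for LPS, a difference of 0.88 at the 99.2 percentile. The control spots read 1415 and 1303 without a flag, and the LPS spots 2558 and 2431, both flagged. Here too the arrays were well separated, with an SD between spots of 0.08 and 0.05. Both probes carry the closing number 69 and lie in the run of 69s, at serial numbers 429 and 449.

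The other high probe past 0.8 was tRNA_401_71, with 4619 and 8365, a difference of 0.86. Its control value rests on 1 spot, since the other, at 5767, was flagged, and with flagged spots kept the difference was 0.70. The same held for tRNA_385_71, with 4447 and 6932, where the difference of 0.64 became 0.54. For tRNA_391_71, with 5002 and 7768, the difference of 0.64 became 0.48. With the normexp correction the 3 differences were 0.52, 0.37 and 0.29. In each of the 3 the flagged control spot, which was left out, was the brighter one. Both LPS spots of each were flagged too, and these were used. All LPS spots still lay above all control spots.

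The remaining 5 of the 10 were 0.47 for tRNA_370_71, 0.38 for tRNA_425_69, 0.36 for tRNA_381_71, 0.33 for tRNA_396_71 and 0.32 for tRNA_369_71. Their control signals lay between 5372 and 5943. Scaled to the E1A spike probes the 5 lay between 0.16 and 0.31, and that of tRNA_370_71 was 0.28 with normexp. For tRNA_370_71, too, the brighter control spot was flagged and left out, while both flagged LPS spots were used. With flagged spots kept, tRNA_370_71 had 0.31 and tRNA_425_69 0.28, whereas tRNA_369_71 rose to 0.40. With all spots considered, the LPS spots of tRNA_370_71 and tRNA_369_71 overlapped with the control spots, and those of the other 3 did not. Of the 10 highest, 7 carried the closing number 71 and 3 the closing number 69. The 10 kept their sign under all alternatives run for them.

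**Figure D2:**
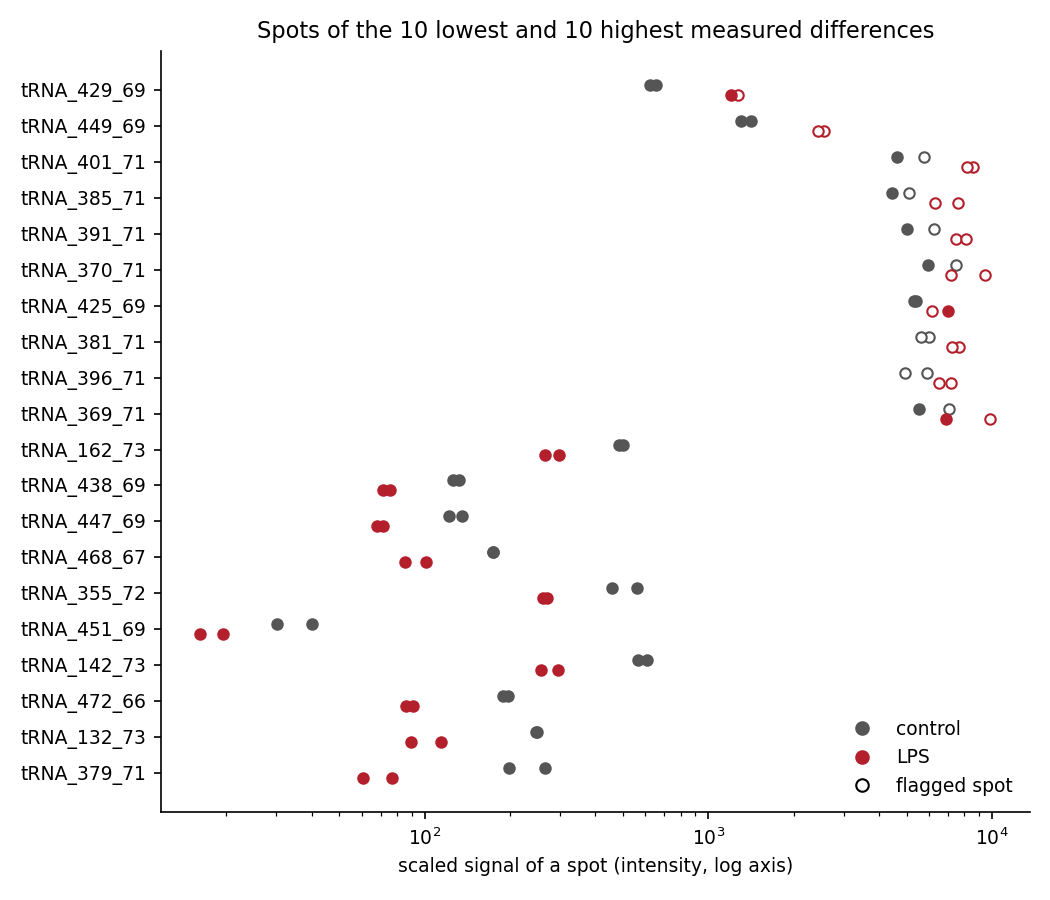
Each line is a tRNA probe, and the horizontal axis gives the scaled signal of each of its spots on a log scale, grey for control and red for LPS, with open symbols for flagged spots. The lines run from the lowest measured difference at the bottom to the highest at the top. The 10 lowest probes have no spot above 608 and no flagged spot, and the 10 highest have control signals from 639 to 5943 and at least 1 flagged spot each.

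The differences of the bright probes also varied with the flag. Among the 64 of the brightest quartile, 46 had a flagged spot on some array, with differences from -0.63 to 0.92 and a median of 0.03, and 26 of them lay above 0. The 18 without one had differences from -0.61 to 0.16 and a median of -0.04, and 6 of them lay above 0. Among other probes of the quartile, 1990 had a flagged spot and a median difference of 0.04, against 0.03 for those without, and 5.98% of those with a flag were at least 1.5-fold higher. The part of uneven spots in the higher values was not tested.

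The brightest tRNA probes differed little between the arrays. The control signals of tRNA_420_69, tRNA_423_69 and tRNA_443_69 were 33454, 31884 and 30897, and their differences were -0.08, -0.20 and -0.21, the last of which was -0.60 with the normexp correction. That of tRNA_475_66 was 24613, with an LPS signal of 23772 and a difference of -0.05. Of these 4, only the last had no flagged spot, and its spots read 24946 and 24285 for control and 23493 and 24054 for LPS. The differences of tRNA_420_69 and tRNA_475_66 turned positive without scaling between the arrays, at 0.05 and 0.08, and with scaling to the 50th percentile. Of the 91 tRNA probes detected on both arrays, 50 lay within 0.25 of 0, and the share over all probes was not counted.

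Sorted by the closing number, the probes fell into groups of unlike spread. The 23 probes with 71 spanned -1.75 to 0.86 with a median of -0.05, and 20 of them were in the brightest quartile. This group held both the lowest measured difference and most of the highest ones. The 34 probes with 69 spanned -2.48 to 0.92, where signals not well above background enter as read, and 30 of them were detected on both arrays. The 10 of the 34 with moderate signals had a median of -0.70, and the 19 bright ones a median of 0.12.

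The 18 probes with 73 divided evenly by signal, 9 in the third quartile and 9 in the brightest. In the third quartile their differences ran from -1.30 to 0.17 with a median of -0.54, and in the brightest quartile from -0.42 to 0.01 with a median of -0.09. Of these, 15 of the 18 lay below 0. The 6 with control signals above 6000 lay closest together, from -0.12 to 0.01. At least 1.5-fold higher were 0 of the 18, beside 2.74% of all probes detected on both arrays, and 4 were at least 1.5-fold lower, beside 14.9%. These 4 were among the 9 of the third quartile, where the share over all probes was 5.63%.

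The 12 probes with 68 had nothing between dim and bright. Of these, 8 had mean signals of 1928 to 2954 and differences of -0.21 to 0.16, and the other 4 had mean signals of 4.30 to 7.87 in the dimmest quartile. The 8 bright ones were close to each other in difference, with a median of -0.02. All their spots were flagged on both arrays, and the SD between control spots was as high as 0.39, for tRNA_462_68. The 7 probes with 66 held 6 bright ones, with differences from -0.05 to 0.17, and tRNA_472_66, which was at least 2-fold lower. The closing numbers 65, 67 and 72 belonged to 1 probe each and 70 to 2 probes.

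**Figure D3:**
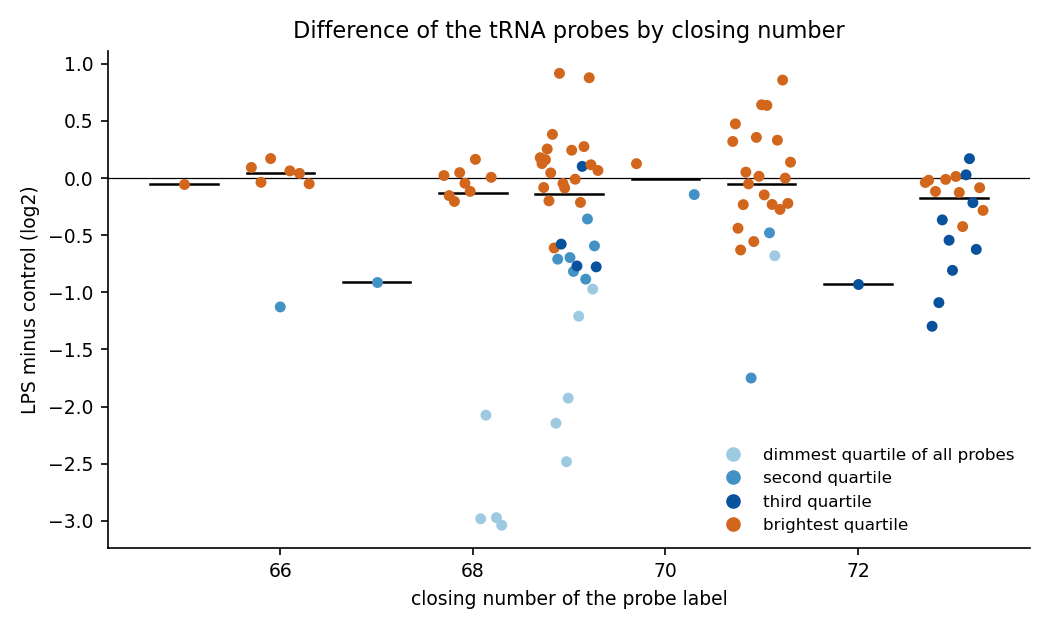
The horizontal axis is the closing number of the label, with the probes of a number spread sideways by serial number, and the vertical axis is the difference, LPS minus control, on the log2 scale. Colours give the quartile of signal among all probes, and the black lines are the medians of each number, with probes not well above background at their readings. The probes with 71 reach from -1.75 to 0.86, those with 69 from -2.48 to 0.92 and those with 68 from -3.04 to 0.16. Of the 18 with 73 all but 3 lie below 0.

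Beside the tRNA probes, 2 other classes of small RNA were counted in the same way. These were 306 probes labelled snoRNA_scaRNA, for the RNAs that guide the modification of ribosomal and spliceosomal RNA, and 141 labelled snRNA, for the RNAs of the spliceosome. At 2-fold, 36 and 31 of them were lower on the LPS array and 0 and 0 higher, which is 12.0% and 25.2% of those detected on at least 1 array. In the middle quartiles of signal, 15 of 25 tRNA probes were at least 1.5-fold lower, or 60%, against 26 of 201 snoRNA_scaRNA probes (12.9%) and 18 of 72 snRNA probes (25%). All probes of these quartiles gave 15.6%. The medians there were -0.70 for tRNA, -0.09 for snoRNA_scaRNA, -0.20 for snRNA and -0.08 for all probes. In the brightest quartile 5 of 64 tRNA probes, 0 of 81 snoRNA_scaRNA probes and 0 of 23 snRNA probes were at least 1.5-fold higher. Probes of a class may share sequence, so that they are not independent measurements, and these differences between classes were not tested.

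Under the 12 other ways of processing run for these medians, that of the 25 tRNA probes of moderate signal lay between -0.86 and -0.48, and that of the bright ones between -0.16 and 0.14, with either sign. Under each of them the first median lay below the second. The alternatives that only changed the scaling factor between the arrays shift all probes alike, and could not change this order. Nor could the median of spots, which equals the mean for 2 spots.

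**Figure D4:**
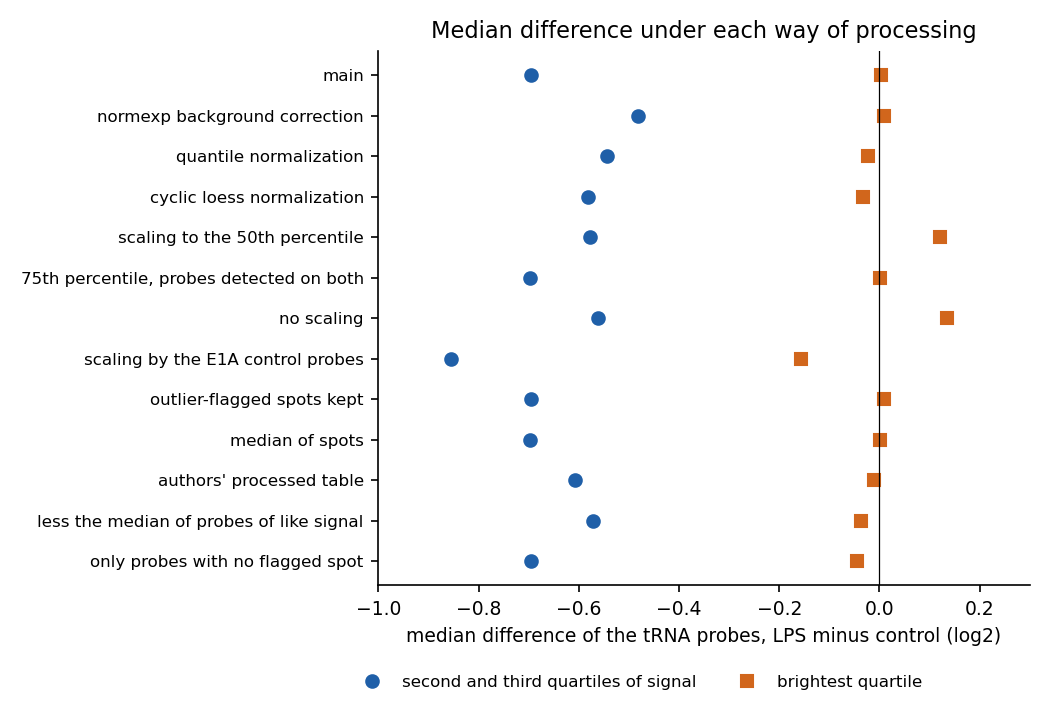
Each line is a way of processing, and the horizontal axis gives the median difference of the tRNA probes, LPS minus control, on the log2 scale. Circles are the 25 probes in the middle quartiles of signal and squares the 64 in the brightest quartile, or those of them that a way of processing retains. The circles lie between -0.86 and -0.48, to the left of the squares on every line.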

How the data were processed

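RNA was extracted with Trizol from THP-1 cells, amplified with T7 primers of oligo(dT) and random type per the labels, labelled with Cy3 and hybridised to 1 array for each condition. Per the file headers, the arrays lie side by side on 1 slide that was scanned once, so that position and condition are confounded. The authors deposited the intensity of each spot from Agilent Feature Extraction 11.5.1.1, background-subtracted and corrected for spatial trends, with flags of 0 or 1, and a table of processed intensities that holds 85 of the 99 tRNA probes. Of its values 97.1% and 96.9% (control and LPS) lie within 0.001 (log2) of the mean over all spots, unscaled, and the column medians are 136 and 137.

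Flagged spots were set aside, log2 intensities averaged over the spots of a probe and the 75th percentile of each array subtracted. Where 1 array was below background, the fold is a bound taken against the lowest signal detected on that array, or against the probe's own value where this is higher. Percentiles refer to other probes within 0.5 (log2) in mean signal. By rule, the 10 highest and 10 lowest measured differences, the probes past 2-fold and the 4 brightest are named, 29 in all. The members are fixed by name, but the class and the lists were chosen with earlier results of these data known. Lists of tRNA processing genes and cell markers were not used, for want of gene names. Calls were tried on spots simulated from the control array, with bright probes shifted by a known amount. The simulation had no flagged spots and the same detection on both arrays, so that the bounds were not tried. Alternatives covered background correction (limma 3.58.1 under R 4.3.3, normexp with an offset of 50 on median intensities), scaling, filters, thresholds and the deposited table. Python 3.11.15, numpy 2.4.6 and pandas 2.3.3 were used.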

Additional observations from a re-analysis of the deposited data

How the results depend on the processing

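The restriction to probes without a flagged spot, and the alternatives for the medians by quartile and for single probes, were added after the data were examined. Of the tRNA probes, 9 were at least 2-fold lower in the main setting. This number was 1 with the normexp correction, 4 under quantile normalization, 5 under cyclic loess, 5 with the median of probes of like signal subtracted, 4 when detection on both arrays was required and 4 with a signal of at least 100 required. It was 24 at 1.5-fold, 3 at 3-fold and 1 at 4-fold. The number at least 2-fold higher, 0 in the main setting, was 1 with scaling to the 50th percentile, 2 without scaling and 5 at 1.5-fold. The median of the 25 probes of moderate signal was -0.48 with normexp, against -0.70. Over the 53 probes without a flagged spot, 45 were detected on both arrays, the median difference was -0.58, and the median less that of probes of like signal was -0.33, against 91, -0.12 and -0.10, because 46 of the 64 bright probes drop out. The difference of tRNA_442_69, -1.21, became 0.46 under quantile normalization and 0.046 under cyclic loess. The median of all probes was -0.13, and it was -0.01 with the 50th percentile, 0.05 with quantiles equalised and -0.29 on the scale of the E1A spike probes. That of the 99 tRNA probes, -0.12, was 0.02 without scaling. The cause of the other changes was not tested. No paired analysis was possible because each condition has 1 array. For the 5 lower probes in the dimmest quartile, signal over background limits the fold to a bound.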
